A study of Arabidopsis thaliana with 4 samples.

Results

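Expansins and xyloglucan endotransglucosylase/hydrolases (XTHs) are secreted proteins that remodel the growing plant cell wall. Expansins loosen the contacts between cellulose and its matrix without cutting the polymers, and are best known for wall extension at acidic pH. XTHs cut xyloglucan, a matrix glycan that coats cellulose, and join the cut end to another chain or, in some members, to water. In roots both families act where cells elongate, and some members are known from root hairs, the tubular outgrowths of epidermal cells.

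The genes described here are those whose symbol in the array's annotation is EXPA (alpha-expansin), EXPB (beta-expansin), EXLA or EXLB (expansin-like A and B) or XTH followed by a number, on a row of the array annotated with 1 gene. There were 31 of them among the 16548 genes with such a row: 13 EXPA, 5 EXPB, 3 EXLA, 1 EXLB and 9 XTH genes. The TAIR10.1 gene table holds 64 symbols of this form, and the other 33 genes, 21 XTH genes among them, were not analysed here. All 31 matched a locus of that table. EXPA20 had 2 rows, of which the row with the higher mean signal was taken.

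The organism is Arabidopsis thaliana, and RNA of its roots was hybridized to 4 arrays of the Affymetrix type Arabidopsis Gene 1.0 ST. The 4 genotypes, with 1 array each, were wild type (WT, Col) and plants labelled CEPD1ox, CEPD2ox and CEPDL2ox. These names mark overexpression of genes of the CEPD family, which encode small glutaredoxin-like polypeptides known as signals of nitrogen demand from shoot to root. All plants, WT included, were kept at 22 °C under continuous light and had ample nitrogen (10 mM each of NH4Cl and KNO3) from a transfer at 7 d on, and the root tissue is labelled 14 d. Not given in the sources used here are the promoter that drives each transgene, the number of independent lines and the number of plants behind an array.

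Each genotype had 1 array, so no difference below has a replicate check and none was tested. With so few arrays the precision of each value is limited. Values are log2 signals as deposited, and a ratio is the log2 signal in a line minus that in WT. Each row has its own probes, so signals were compared between arrays for 1 gene and not between genes. In bulk root tissue, fewer cells of a type and less RNA per cell cannot be told apart. A gene was kept if its highest signal on the 4 arrays reached 2.78, the 25th percentile of all gene values. This kept 29 of the 31 members and 13232 genes in all. EXPA21 and EXPB4 lay below this value on every array and are described by their signals alone.

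Each introduced gene was read first, as a check of the labels. The CEPD2 gene (AT2G47880) had a log2 signal of 9.22 in CEPD2ox against 1.41 in WT, and the CEPDL2 gene (AT3G62960) had one of 5.49 in CEPDL2ox against 3.46. The CEPD1 gene (AT1G06830) had one of 3.04 on the CEPD1ox-labelled array against 2.66 in WT, so overexpression was not seen there and that array is named by its label throughout. The phosphatase gene CEPH (AT4G32950), of the type 2C kind named in the study's title and not an introduced gene, was above WT on that array as in the other lines, at 5.45, 5.87 and 7.51 against 3.67. Of 20 symbols listed as root tissue markers 1 had a named row: BGLU23, a beta-glucosidase abundant in roots, was at 12.98 in WT and between 12.87 and 12.95 in the lines. Of 24 symbols listed as photosynthesis markers of the shoot 3 had a named row (RCA, PRK and LHCB4.1), and all 3 were below WT in every line. PRK, a Calvin cycle kinase, was lower by more than 2-fold in each, with ratios of -1.31, -1.63 and -2.10, while those of RCA and LHCB4.1 lay between -0.65 and -0.06. Their summed linear signal was 129.6 in WT, 81.3 on the CEPD1ox-labelled array, 103.4 in CEPD2ox and 76.7 in CEPDL2ox, a sum over rows with different probes of which RCA is the largest term. The part of these differences in the results below was not tested.

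Most members lay near their WT signal in every line. At least 2-fold higher than WT on the CEPD1ox-labelled array was 1 member kept, XTH29, and 0 were at least 2-fold lower, beside 0.733% and 0.476% of all genes kept. In CEPD2ox 0 members were 2-fold higher and 0 were 2-fold lower, beside 0.506% and 0.393% of all genes. In CEPDL2ox 0 were higher and 1, EXPB5, was lower, beside 0.771% and 0.491%. A count of 1 among 29 members is too small to set apart from these background shares.

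At the smaller threshold of 1.5-fold, members were more often lower than higher. On the CEPD1ox-labelled array 1 member was higher and 3 were lower (EXPB5, EXLA2 and XTH20), beside 3.93% and 2.99% of all genes kept. In CEPD2ox 0 were higher and 2 lower (XTH20 and XTH32), beside 3.3% and 2.63%. In CEPDL2ox 0 were higher and 3 lower (EXPA24, EXPB2 and EXPB5), beside 3.28% and 3.35%. Calls near the threshold moved with the scaling of the arrays. EXLA2 did not pass after the median shift or quantile normalization, EXPB2 did not pass after cyclic loess normalization, and XTH18 passed in CEPDL2ox after the median shift, so that 2 or 3 members were lower on the CEPD1ox-labelled array and 2 to 4 in CEPDL2ox. The lower members were 10.3%, 6.9% and 10.3% of the 29 kept in the 3 lines, above the background shares, but these are counts of 2 or 3 genes on single arrays that share 1 WT array.

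By sign alone, 21 of the 29 members lay below WT in CEPD2ox, 72.4% beside 50.3% of all genes kept. On the CEPD1ox-labelled array 16 did so, 55.2% beside 49.2%, and in CEPDL2ox 16 did so, 55.2% beside 49.5%. The median log2 ratio of the members was -0.18 in CEPD2ox, -0.07 in CEPDL2ox and -0.02 on the CEPD1ox-labelled array, while the medians of all genes kept were 0.00 in each line. With the arrays shifted to the same median, the median of the members on the CEPD1ox-labelled array turned to 0.03, with 13 of 29 members and 40.0% of all genes kept below WT, so it has no settled sign. In CEPDL2ox it turned to 0.02 over the 19 members that passed a filter at the median of all gene values.

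**Figure D1:**
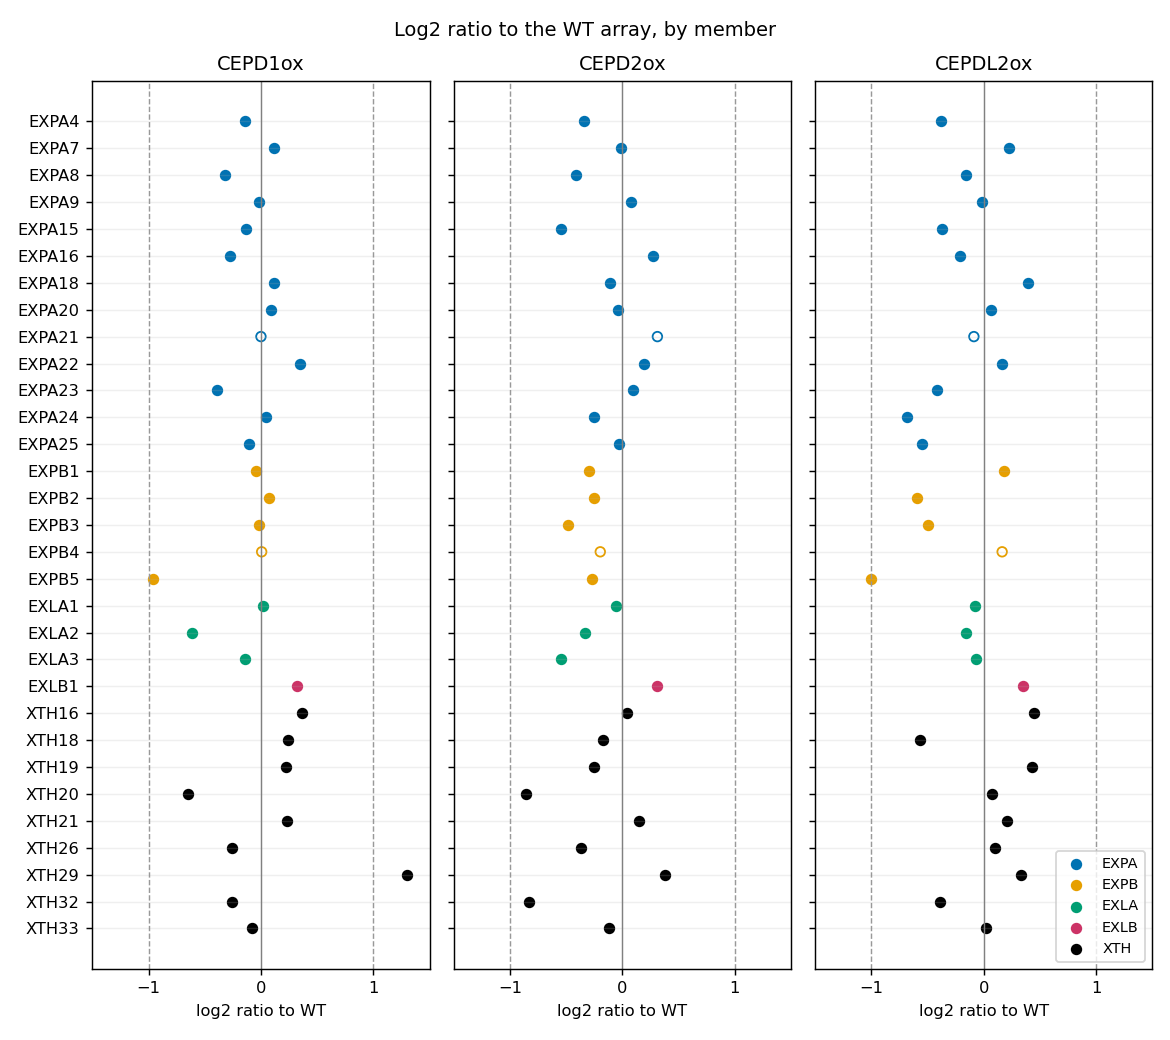
Log2 ratio to the WT array (horizontal axis) for each of the 31 members (vertical axis) in the lines labelled CEPD1ox, CEPD2ox and CEPDL2ox, with 1 array per genotype and so no error bars; filled points are the 29 members kept, open points EXPA21 and EXPB4, and dashed lines mark 2-fold. XTH29 lies past the dashed line, 2.46-fold above WT, on the CEPD1ox-labelled array, EXPB5 reaches it at -1.002 in CEPDL2ox, and the other kept members lie between the dashed lines.

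The XTH genes held the highest and several of the lowest ratios. All 9 were kept, with WT log2 signals from 3.39 to 6.89. Their median ratio was 0.22 on the CEPD1ox-labelled array, where 5 of 9 were above WT, and -0.18 in CEPD2ox, where 3 of 9 were. In CEPDL2ox it was 0.10 with 7 of 9 above WT. Of all genes kept, 50.4%, 49.3% and 50.0% lay above WT in the 3 lines. The XTH medians kept their sign under each scaling of the arrays that was tried. The 7 of 9 in CEPDL2ox include XTH33 at 0.02, which turned to -0.01 with the arrays shifted to the same median. Counts over 9 genes are too small to set apart from the shares of all genes kept.

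XTH29 (AT4G18990) stood out on a single array. Log2 signals were 3.72 in WT, 5.02 on the CEPD1ox-labelled array, 4.098 in CEPD2ox and 4.05 in CEPDL2ox. The array labelled CEPD1ox was thus high, 2.46-fold above WT, while the other lines were close together at 1.304- and 1.26-fold. Among the 3553 genes with a mean signal of 3 to 5, 0.338% lay as far above WT on that array, against 13.5% in CEPD2ox and 15.9% in CEPDL2ox for its ratios there. Its spread over the 3 lines, 0.97 on the log2 scale, was the widest of all members kept. Of genes with a mean signal of 3 to 5, 5.77% had a spread at least as wide.

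XTH20 (AT5G48070), known from the vascular tissue of the mature root, split the lines another way. Log2 signals were 5.27 in WT and 5.34 in CEPDL2ox, but 4.62 on the CEPD1ox-labelled array and 4.42 in CEPD2ox. WT and CEPDL2ox formed the high pair, and the other arrays were 1.56- and 1.81-fold below WT. Of genes of similar signal, 4.14% and 1.49% lay as far below WT on those arrays. CEPDL2ox was 1.90-fold above CEPD2ox for this gene, a difference that does not use the WT array.

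XTH32 (AT2G36870), of the XTH group predicted to hydrolyse xyloglucan, was lowest in CEPD2ox. Its signals were 5.68 in WT, 5.42 on the CEPD1ox-labelled array, 4.85 in CEPD2ox and 5.29 in CEPDL2ox. All 3 lines were below WT, with log2 ratios of -0.26, -0.83 and -0.39. In CEPD2ox this is 1.78-fold lower, and 0.393% of the 4326 genes with a mean signal of 5 to 7 lay as far below WT on that array.

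XTH18 and XTH19 are adjacent genes with no coding gene between them in the gene table, and both are known from growing root regions. XTH18 (AT4G30280) had log2 signals of 3.39 in WT, 3.63 on the CEPD1ox-labelled array, 3.22 in CEPD2ox and 2.83 in CEPDL2ox. XTH19 (AT4G30290) had signals of 4.09, 4.31, 3.83 and 4.52 in the same order. On the CEPDL2ox array the neighbours were thus on opposite sides of WT, with ratios of -0.56 and 0.43, although the XTH18 signal there lies just above the filter value. Close relatives of this kind can share probes, which was not examined.

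The remaining XTH genes differed less. XTH21 (AT2G18800), which is known to take part in root growth, had a signal of 6.89 in WT and of 7.12, 7.04 and 7.09 in the lines. The lines lay close together, within 0.08, and all above WT, and its ratios of 0.15 to 0.23 are matched in that direction by 6.19% to 13.0% of genes with a mean signal of 7 or above. XTH16 (AT3G23730) had signals of 4.24 in WT, 4.60 on the CEPD1ox-labelled array, 4.28 in CEPD2ox and 4.69 in CEPDL2ox, so that CEPD2ox stayed near WT and the other lines lay above it, by 0.36 and 0.45. XTH33 (AT1G10550), whose protein is anchored in the plasma membrane, was at 5.81 in WT and between 5.69 and 5.83 in the lines.

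Members known from root hairs stayed within 1.5-fold of WT in every line. EXPA7 (AT1G12560), an alpha-expansin needed for normal root hair length, had log2 signals of 6.60 in WT, 6.72 on the CEPD1ox-labelled array, 6.58 in CEPD2ox and 6.83 in CEPDL2ox. EXPA18 (AT1G62980), its close relative in hair cells, had signals of 8.24, 8.36, 8.14 and 8.63 in the same order. For both genes CEPD2ox was the lowest array and CEPDL2ox the highest.

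The EXPA7 ratios were 0.12, -0.02 and 0.23, and the EXPA18 ratios 0.12, -0.11 and 0.39. The EXPA7 ratio in CEPD2ox turned to between 0.01 and 0.02 under the 3 other scalings, so it has no settled sign. The EXPA18 ratio in CEPDL2ox, a 1.31-fold difference, is matched or passed by 2.66% of the 3942 genes with a mean signal of 7 or above. The EXPA7 ratio there is matched or passed by 17.8% of genes of its signal range.

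XTH26 (AT4G28850), an XTH expressed in root hairs, had signals of 6.22 in WT, 5.97 on the CEPD1ox-labelled array, 5.85 in CEPD2ox and 6.32 in CEPDL2ox. Here too CEPD2ox was lowest and CEPDL2ox highest, but the CEPD1ox-labelled array lay below WT. XTH12, XTH13 and XTH14, further XTH genes named for root hairs, were not analysed here. Of 47 other symbols listed for root hairs 2 had a named row. CSLD2, a cellulose synthase-like protein of hair growth, had ratios of 0.12, -0.04 and 0.14. SCN1, which limits the sites of hair initiation, had ratios of 0.02, -0.17 and 0.09.

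Setting the lines against each other leaves out the WT array. CEPDL2ox exceeded CEPD2ox by 0.24 on the log2 scale for EXPA7, 0.50 for EXPA18, 0.47 for XTH26, 0.18 for CSLD2 and 0.26 for SCN1. All 5 root hair genes with a named row were thus higher in CEPDL2ox, where 51.1% of all genes kept were. The array labelled CEPD1ox also exceeded CEPD2ox for each of the 5, by 0.12 to 0.22, where 51.5% of all genes kept did. Higher signals on the CEPD1ox-labelled array than in CEPD2ox were not particular to the root hair genes. They were seen for 23 of the 29 members kept, and the median difference over the 29 was 0.16. CEPDL2ox exceeded CEPD2ox for 16 of the 29 members, EXPA7, EXPA18 and XTH26 among them, beside 51.1% of all genes kept. That count is near the background share. CEPD2ox was the lowest and CEPDL2ox the highest line for 11 members, 37.9% beside 18.6% of all genes kept. Beside EXPA7, EXPA18 and XTH26 these were EXPA8, EXPB1, EXLA3, EXLB1, XTH16, XTH19, XTH20 and XTH33. The count of 11 includes EXPA7, EXPA18 and XTH26, from which this order was read, and takes orders of any size. EXLB1, for example, is in it with a range over the lines of 0.05. It is therefore no separate check of the order in the root hair genes. The 5 root hair genes may be read in the same cells, and each difference rests on 2 arrays. Of 14 symbols listed as regulators of hair and non-hair cell fate 2 had a named row. TRY had ratios of 0.03, 0.10 and -0.14 and JKD ratios of -0.14, -0.13 and -0.09.

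**Figure D2:**
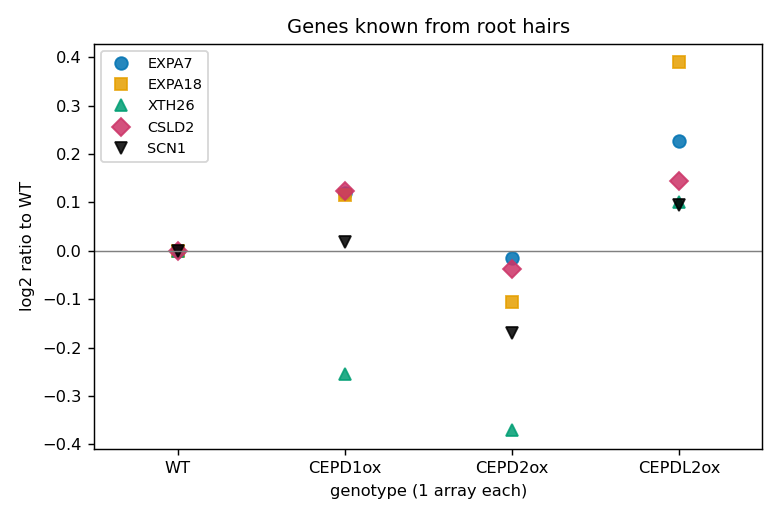
Log2 ratio to the WT array (vertical axis) of the 5 genes known from root hairs that had a named row, on each array (horizontal axis, 1 array per genotype, WT at 0 by definition, no error bars). Each gene has its highest line value in CEPDL2ox, up to 0.39 for EXPA18, and its lowest in CEPD2ox, down to -0.37 for XTH26.

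The other alpha-expansins included members with high signals that lay below WT in CEPD2ox and CEPDL2ox. Of the 12 EXPA genes kept, EXPA7 and EXPA18 included, 8 were below WT in CEPD2ox, 8 in CEPDL2ox and 7 on the CEPD1ox-labelled array. Of all genes kept, 50.3%, 49.5% and 49.2% were. The median EXPA ratios were -0.03, -0.19 and -0.06 in the same order. The 8 in CEPD2ox include EXPA7, whose ratio there has no settled sign. Counts over 12 genes are too small to set apart from the shares of all genes kept. EXPA15 (AT2G03090) had log2 signals of 7.99 in WT, 7.86 on the CEPD1ox-labelled array, 7.45 in CEPD2ox and 7.62 in CEPDL2ox. It was 1.46-fold below WT in CEPD2ox, and 0.533% of genes with a mean signal of 7 or above lay as far below. In CEPDL2ox, where it was 1.295-fold below WT, this share was 2.56%.

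EXPA4 (AT2G39700) had signals of 9.22 in WT, 9.08 on the CEPD1ox-labelled array, 8.87 in CEPD2ox and 8.84 in CEPDL2ox. All 3 lines lay below WT, by 1.101-, 1.27- and 1.299-fold. EXPA9 (AT5G02260), by contrast, had signals of 9.49 in WT and 9.47 to 9.56 in the lines, within 0.09 of each other. EXPA8 (AT2G40610) had ratios of -0.32, -0.41 and -0.16. The row taken for EXPA20 (AT4G38210) had ratios of 0.09, -0.04 and 0.06, and its other row had 0.07, -0.32 and -0.13, so its rows differ in sign in CEPDL2ox.

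EXPA21 to EXPA25 form a cluster on chromosome 5 in which at most 4 coding genes, members included, lie between any pair. EXPA25 (AT5G39300) had signals of 6.07 in WT, 5.96 on the CEPD1ox-labelled array, 6.03 in CEPD2ox and 5.52 in CEPDL2ox. Its neighbour EXPA24 (AT5G39310) had signals of 4.02, 4.07, 3.77 and 3.34 in the same order. For both genes CEPDL2ox was the lowest array, 1.46-fold below WT for EXPA25 and 1.60-fold for EXPA24. Of genes of similar signal, 1.96% and 4.14% lay as far below WT there.

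The rest of the cluster had low signals. EXPA23 (AT5G39280) had ratios of -0.39, 0.10 and -0.42, from a WT signal of 3.85. EXPA22 (AT5G39270) had signals of 2.91, 3.26, 3.10 and 3.08 in the order used above, all close to the filter value, and ratios of 0.35, 0.19 and 0.17. EXPA21 (AT5G39260) stayed between 1.97 and 2.37 on the 4 arrays. EXPA16 (AT3G55500), which lies elsewhere, was kept for its signal of 3.04 in CEPD2ox and lay below the filter value on the other 3 arrays, at 2.76 in WT, 2.48 on the CEPD1ox-labelled array and 2.55 in CEPDL2ox, so its ratios are limited by background. These genes are close relatives, and whether they share probes was not examined.

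Among the beta-expansins all 4 kept genes lay below WT in CEPD2ox and 3 of 4 in each other line, where 49.2% to 50.3% of all genes kept did. A count over 4 genes is too small to set apart from these shares. The medians were -0.28 in CEPD2ox and -0.54 in CEPDL2ox. On the CEPD1ox-labelled array the median of -0.03 turned to 0.02 when the arrays were shifted to the same median. EXPB5 (AT3G60570) had log2 signals of 4.90 in WT, 3.94 on the CEPD1ox-labelled array, 4.63 in CEPD2ox and 3.89 in CEPDL2ox. WT and CEPD2ox were the high pair, and the low pair lay 1.94- and 2.00-fold below WT. Of genes of similar signal, 1.38% and 0.732% lay as far below WT on these arrays. The CEPDL2ox ratio sits at the 2-fold threshold, and after cyclic loess normalization it no longer passed.

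EXPB3 (AT4G28250), a member with high signals, was lower in CEPD2ox and CEPDL2ox. Its signals were 9.98 in WT, 9.96 on the CEPD1ox-labelled array, 9.50 in CEPD2ox and 9.49 in CEPDL2ox. WT and the CEPD1ox-labelled array were high, and the other lines were lower by 1.39- and 1.41-fold. In CEPD2ox 0.812% and in CEPDL2ox 1.04% of genes with a mean signal of 7 or above lay as far below WT.

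EXPB1 (AT2G20750) had signals of 8.92, 8.88, 8.63 and 9.10 in the order used above, lowest in CEPD2ox and highest in CEPDL2ox. EXPB2 (AT1G65680) had signals of 4.80, 4.87, 4.55 and 4.21, and was 1.50-fold below WT in CEPDL2ox. The WT and line signals of EXPB4 (AT2G45110) stayed between 1.60 and 1.96, below the filter value. The beta-expansins therefore did not share a common order of the lines.

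Among the expansin-like genes, EXLA2 and EXLA3 lay below WT in every line, EXLA1 stayed near WT and EXLB1 lay above it. These are few genes on single arrays, too few to describe a subfamily. EXLA2 (AT4G38400) had log2 signals of 5.28 in WT, 4.67 on the CEPD1ox-labelled array, 4.94 in CEPD2ox and 5.12 in CEPDL2ox, and all 3 lines were below WT, by 1.53-, 1.26- and 1.12-fold. EXLA3 (AT3G45960) had signals of 4.34, 4.19, 3.79 and 4.26, and lay furthest below WT in CEPD2ox, at a ratio of -0.54. EXLA1 (AT3G45970), the neighbour of EXLA3 with no coding gene between, was at 6.09 in WT and between 6.01 and 6.11 in the lines.

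EXLB1 (AT4G17030), the sole EXLB gene of the gene table, was higher in the lines. Its signals were 5.80 in WT, 6.12 on the CEPD1ox-labelled array, 6.11 in CEPD2ox and 6.15 in CEPDL2ox. The lines lay within 0.05 of each other and 1.25-, 1.23- and 1.27-fold above WT. The 3 ratios share the single WT value, so they count as 1 observation of that value against 3 lines that lie together. Per line, 7.86%, 7.88% and 8.28% of genes of similar signal lay as far above WT.

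**Figure D3:**
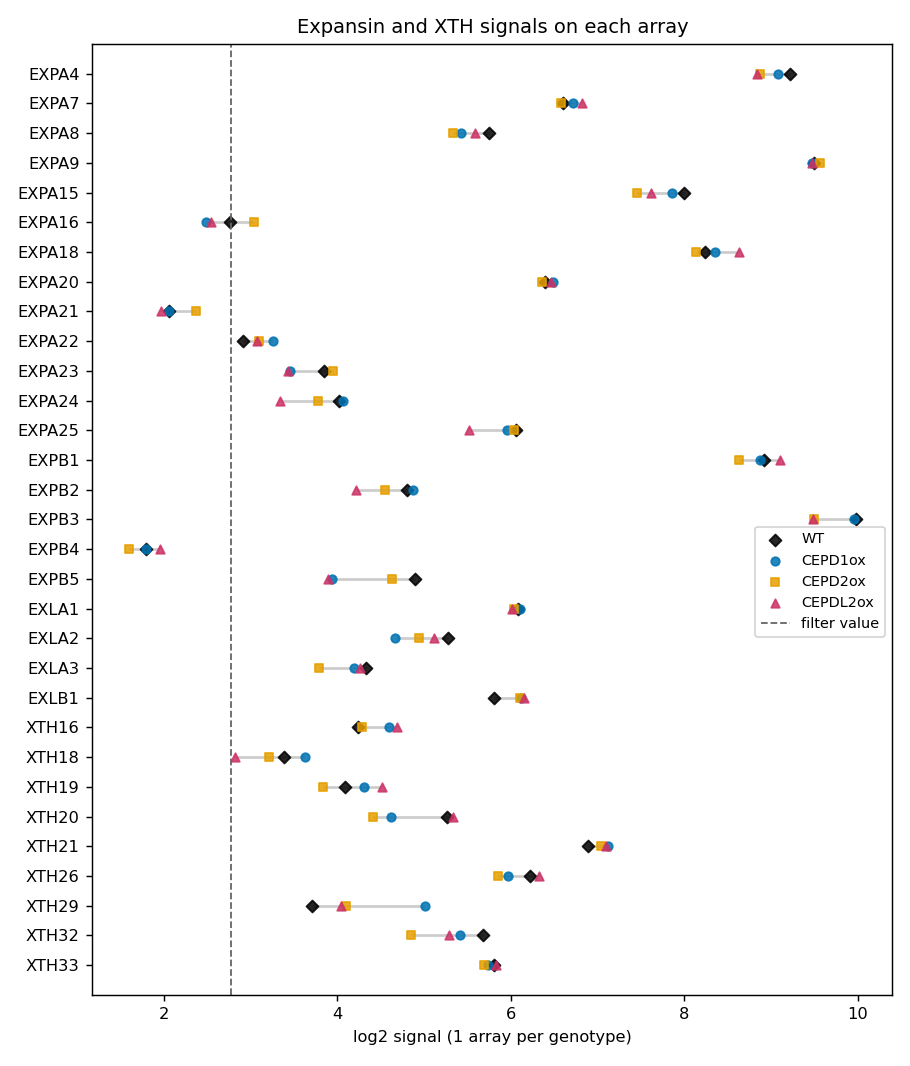
Log2 signal (horizontal axis) of each of the 31 members (vertical axis) on the 4 arrays, 1 per genotype and marked by shape, with a grey bar from the lowest to the highest array and a dashed line at the filter value of 2.78. EXLB1 has its 3 lines together above WT, XTH29 has the CEPD1ox-labelled array apart at 5.02, and EXPA21 and EXPB4 lie left of the dashed line on every array.

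By their median, signals of the members varied more between the lines than those of all genes kept. The difference between the highest and lowest line had a median of 0.47 over the 29 members and of 0.26 over all genes kept. Their median WT signals were alike, at 5.75 and 5.82. Within bins of mean signal, 22 of 29 members, 75.9%, lay above the median of their bin. Past the 95th percentile of their bin were 3 members, EXPA18, EXPB1 and EXPB3, each with a mean signal of 7 or above and a difference of 0.48 to 0.50. A count of 3 among 29 members is too small to set apart from the share of all genes kept past that percentile. With 1 array per line, differences between lines and between arrays cannot be told apart.

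The ratios to WT were spread over the members by an SD of 0.40 on the CEPD1ox-labelled array, 0.31 in CEPD2ox and 0.38 in CEPDL2ox, beside 0.31, 0.30 and 0.32 over all genes kept. Past the 95th percentile of absolute ratios in their bin were 3 members on the CEPD1ox-labelled array (EXPB5, EXLA2 and XTH29), 5 in CEPD2ox (EXPA4, EXPA15, EXPB3, XTH20 and XTH32) and 3 in CEPDL2ox (EXPA25, EXPB3 and EXPB5). These are 10.3%, 17.2% and 10.3% of the 29 members, where 5% of the genes kept in each bin lie past that value by definition. Counts of 3 to 5 genes on single arrays that share the same WT array are too small to set apart from that share. EXLA2 passed by the edge of its bin. Its mean signal was 5.003, and its ratio of -0.61 lay inside the 0.80 that marks this percentile for signals of 3 to 5.

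**Figure D4:**
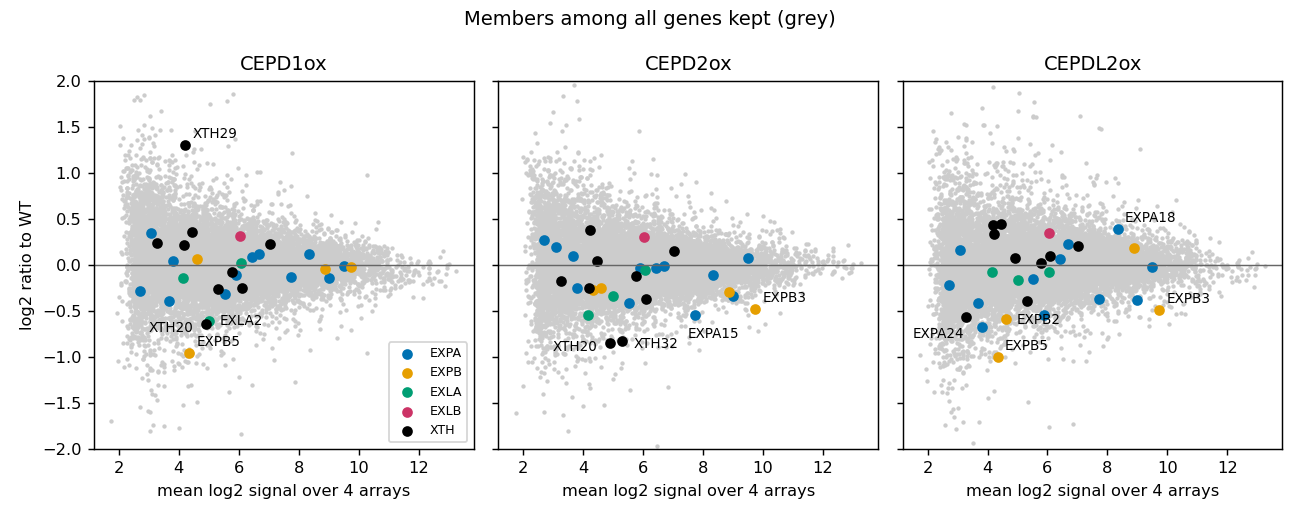
Log2 ratio to the WT array (vertical axis, drawn from -2 to 2) against the mean log2 signal over 4 arrays (horizontal axis) for the 13232 genes kept in grey and the 29 expansin and XTH genes in colour by family, 1 panel per line. The grey cloud narrows as the signal grows, so that EXPB3 at -0.48 in CEPD2ox lies at its edge while XTH19 at 0.43 in CEPDL2ox lies inside it.

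Genes that make the substrate of XTHs and other wall polymers were read from lists chosen by role. Of 15 symbols for xyloglucan synthesis 4 had a named row, all CSLC genes, which encode synthases of the glucan backbone of xyloglucan. CSLC4, the main backbone synthase, had log2 signals of 8.28 in WT, 8.27 on the CEPD1ox-labelled array, 8.08 in CEPD2ox and 8.28 in CEPDL2ox. CSLC5, CSLC6 and CSLC12 had ratios between -0.06 and 0.25. The median of the 4 genes lay between -0.01 and 0.01 in each line, and 0 of them passed 2-fold in any line.

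For cellulose synthesis 1 of 19 symbols had a named row. COB, which orients cellulose deposition in elongating root cells, had a signal of 11.36 in WT and of 11.24, 11.15 and 11.18 in the lines, with ratios of -0.12, -0.21 and -0.18. For pectin modification 2 of 22 symbols had a named row, PME35 and ADPG1, and both lay below the filter value on every array. The 4 symbols for xyloglucan breakdown and the 38 for structural wall proteins had no named row and were not read, so these lists say nothing of their genes.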

How the data were processed

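Total RNA (100 ng per array) from roots was hybridized to 4 arrays, 1 per genotype. The authors deposited log2 signals, 1 per row and array. The submitters' processing notes name Affymetrix Expression Console 1.3. The genome build is not given in the sources used here, nor is how signals were summarized and normalized. The log2 base was inferred from the values (0.431 to 13.8). Medians over the 38408 rows lay between 5.11 and 5.18, and r between arrays between 0.983 and 0.984. GEO's platform annotation named 1 gene for 16722 rows; 759 rows with several genes and 20927 with none were not used. Names were matched to TAIR10.1. For 148 genes with more than 1 row, that of highest mean signal was used.

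Values were used as deposited, and fold counts over members were set beside those over all genes kept. No test or p-value was possible. Members and lists were chosen with earlier results of these data known. Values on every array are given for EXPA7, EXPA18, XTH26, kept members at least 2-fold from WT, the 3 highest and 3 lowest ratios per line and the 6 widest ranges over the lines. Members with the highest WT signals of each family were named too, and the others to account for all 31. Python 3.11.15 and R 4.3.3 with limma 3.58.1 were used.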

Additional observations from a re-analysis of the deposited data

How the results depend on the processing

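No paired analysis was possible because each group has 1 array. Each choice below was varied alone. At 1.5-fold, the members lower than WT numbered 3 (CEPD1ox-labelled array), 2 in CEPD2ox and 3 in CEPDL2ox, against 0, 0 and 1 at 2-fold. At 3-fold 0 were higher on the CEPD1ox-labelled array and 0 lower in CEPDL2ox. In scalings added after the data were seen, the counts at 1.5-fold were 2 or 3 lower on the CEPD1ox-labelled array, 2 in CEPD2ox and 2 to 4 in CEPDL2ox. The 1 member lower in CEPDL2ox, EXPB5, became 0 after cyclic loess normalization and with a filter at the median of all gene values, which kept 19 members and leaves out EXPB5. The count of 1 member higher on the CEPD1ox-labelled array, XTH29, held under all settings at 2-fold. XTH29 passed the filter at the median only through its high signal on that same array, so that setting is no check of this count. The median log2 ratio of members in CEPD2ox (-0.18) was -0.15 with arrays shifted to the same median, -0.17 after quantile and -0.19 after cyclic loess normalization, and -0.12 with the filter at the median. On the CEPD1ox-labelled array (-0.02) it was 0.030, -0.026, -0.02 and -0.040 in the same order. In CEPDL2ox (-0.07) it was -0.10, -0.081, -0.061 and 0.019. No filter, or the mean over rows, changed no median by more than 0.01. Of 72 ratios of 24 named members, 5 turned sign under some scaling, each within 0.05 of 0: EXPA7 in CEPD2ox, EXPA9, EXPB1 and EXPB3 on the CEPD1ox-labelled array, and XTH33 in CEPDL2ox. EXPA8, EXPA15, EXPA20, EXPA23 and EXPA25, also kept, were not part of this check. Among all members kept, 19 lay below WT in CEPD2ox after quantile normalization against 21 as deposited, so EXPA7 was not the sole member to turn sign there. The number of arrays limits every value, and low signals understate differences in RNA. The cause of these shifts was not tested.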
